A study of Mus musculus with 14 samples.

Results

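The unfolded protein response and heat shock genes described here are 34 genes listed by name for what their proteins are known to do. The list was drawn up with earlier results of these data known. Each gene was looked up by the single gene symbol of a probe set. They comprise 14 chaperones and folding enzymes of the endoplasmic reticulum (ER), 4 genes of ER-associated degradation, 3 sensors and transcription factors of the unfolded protein response, 9 cytosolic heat shock chaperones and cochaperones, 3 mitochondrial chaperones and the heat shock transcription factor Hsf1. Of the 34 genes, 32 had a value among the 18193 genes with such a probe set. No probe set carried Hsp90ab1 or Hsf1 as its only symbol, so both genes are unnamed here. All 32 measured genes lay among the 10916 genes, the brightest 60%, that were tested.

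Their RNA was measured on 14 Affymetrix 430 2 arrays of repeatedly activated T helper 1 cells (Th1 rep cells) from OT-II mice, whose T cells carry a transgenic receptor for an ovalbumin peptide. Naive CD4+CD62Lhi cells of 6 to 10 weeks old mice had been stimulated repeatedly with that peptide and irradiated antigen-presenting cells under IL-12 and αIL-4, IL-2 being added in all rounds but the first. Once 4 rounds were over, the cells received Antagomir-31, an oligonucleotide against the microRNA miR-31, or as a control Antagomir-SCR, each at 1 µM, were restimulated with plate-bound αCD3 and αCD28 and were harvested 36, 48 or 72 h after the treatment. There were 2 arrays per treatment for 36 h, 2 for 48 h and 3 for 72 h. Every group shared the genotype, the culture and the restimulation, and no group was left without restimulation. The labels do not say that arrays of a group came from separate cultures, so the p-values speak only of the spread among these arrays, part or all of which may be technical.

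When proteins fold poorly in the ER, the membrane sensors Ern1 (IRE1α), Atf6 and PERK set off the unfolded protein response. Ern1 splices the Xbp1 mRNA, Atf6 is cut to release a transcription factor, and both raise genes for ER chaperones, for disulfide isomerases and for the machinery that moves misfolded proteins out of the ER for degradation. The heat shock response is the counterpart for the cytosol, where Hsf1 raises Hsp70, Hsp90 and Hsp40 chaperones. Activated T helper cells make large amounts of secreted and surface proteins, cytokines among them, and so depend on the ER machinery. The arrays measured mRNA and not splicing of Xbp1, cleavage of Atf6 or any protein.

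The labelled cell type was checked on markers. All 8 measured T cell and Th1 markers passed the filter, with Ifng brighter than 99.9% of genes. Of the markers of other cells, 2 of 6 for B and plasma cells, 4 of 5 for macrophages, 1 of 4 for dendritic cells, 1 of 3 for CD8 T and NK cells and 1 of 3 for Th2 and Th17 cells passed it. Those that passed included Ighm, Sdc1, Cd14, Csf1r, Lyz2, Fcgr1 and Cd74, and those that did not included Cd79a, Cd79b, Ms4a1, Jchain, Adgre1, Itgax and H2-Aa. Log2 values correlated at 0.997 to 0.998 between arrays of a time and at 0.972 to 0.992 between times. As deposited, array medians ran from 23.4 to 23.8 at 36 h, from 21.8 to 22.1 at 48 h and from 27.9 to 28.4 at 72 h, so the arrays of each time appear to have been normalized on their own, and time and normalization batch cannot be told apart. Time courses were therefore read after quantile normalization over all 14 arrays. On the deposited scale the median of all genes shifted by -0.04 log2 from 36 to 48 h and by 0.28 log2 from 36 to 72 h, against 0.01 and 0.00 after it.

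In the Antagomir-SCR treated controls, nearly all ER chaperones fell between 36 and 72 h. Of the 8 measured cytosolic heat shock genes 3 fell and 1 rose (2 and 4 on the values as deposited), over a narrower range. Of the 14 ER chaperones and folding enzymes, 13 fell and 1, Canx, rose, with a median log2 difference of -0.81 between 72 and 36 h. Over all genes tested, 35.7% fell, 35.5% rose and the median was 0.00 (17% fell and 61.5% rose as deposited). On the Antagomir-31 arrays the list had the same counts, 13 and 1, with a median of -0.67, where 34.4% of all genes fell and 35.5% rose. All 6 arrays at 72 h lay below all 4 at 36 h for 13 of the 14 genes and for 2 of the 8 cytosolic ones, against 32.8% of all genes.

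The steepest fall was that of Creld2, a disulfide isomerase-like ER protein. Its quantile normalized intensity was 1618 and 1696 on the control arrays at 36 h, 1169 and 1167 at 48 h, and 395, 426 and 451 at 72 h. On the Antagomir-31 arrays it was 1526 and 1533, then 1052 and 962, then 431, 444 and 457. In both treatments the 3 times did not overlap. The control difference between 72 and 36 h was -1.97 log2 (SE 0.06, adjusted p = 1.23e-11 by limma), or 3.91-fold lower.

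Dnajc3 (p58IPK), an ER J-protein that also restrains PERK, had intensities of 2813 and 2659 at 36 h, 1804 and 2079 at 48 h, and 943, 924 and 892 at 72 h in the controls. It fell by 1.57 log2 (SE 0.06, adjusted p = 2.21e-10), or 2.97-fold. The Antagomir-31 arrays gave 2539.8 and 2465, then 2132 and 1916, then 925, 953 and 964. Here too every array at 72 h was below every array at 48 h, which held for 11 of the 14 ER members and for 32% of all genes.

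Hspa5 (BiP, GRP78) is the ER member of the Hsp70 family and holds the sensors inactive until unfolded proteins draw it away. Its control intensity was 10449 and 10273 at 36 h, 8653 and 8936 at 48 h, and 5219.6, 5243 and 5169 at 72 h. The Antagomir-31 arrays stood at 10067 and 9392, at 8603 and 7923, and at 5372, 5430.3 and 5144. Times were apart in both treatments, and the control fall was 0.99 log2 (SE 0.05, adjusted p = 1.75e-09), or 1.99-fold.

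**Figure D1:**
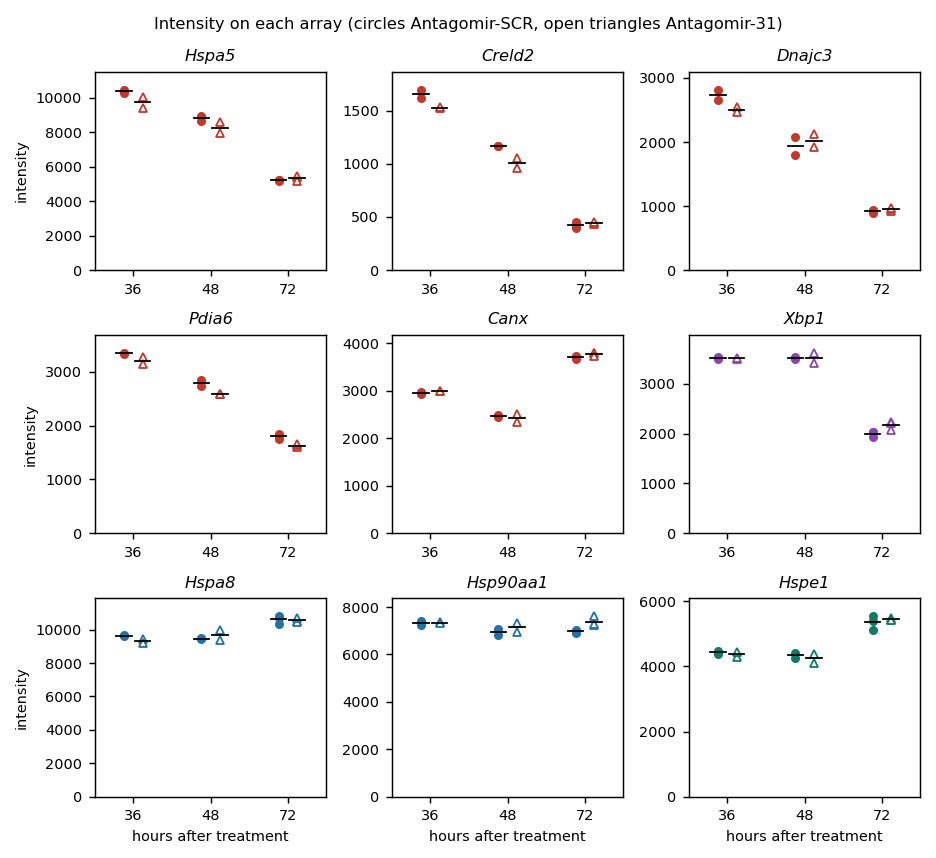
Quantile normalized intensity on every array, from 0 up, for 9 of the genes against hours after treatment, with filled circles for Antagomir-SCR, open triangles for Antagomir-31 and bars for group means. Hspa5, Creld2, Dnajc3 and Pdia6 stepped down from 36 to 48 to 72 h, Xbp1 was level until 48 h, Canx was highest at 72 h, and Hspa8 and Hsp90aa1 differed by 0.14 and -0.07 log2 between 36 and 72 h.

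The other ER members fell less. Pdia6, a disulfide isomerase, went from 3335 and 3346 to 1749.6, 1826 and 1843 in the controls, a difference of -0.89 log2 (SE 0.04). Hyou1 (GRP170), the nucleotide exchange factor of BiP, differed by -0.88 log2 (SE 0.06), Dnajb9 (ERdj4), a J-protein that keeps BiP on Ern1, by -0.87 (SE 0.08), and Manf, a secreted ER stress protein, by -0.85 (SE 0.05). Pdia4, a further isomerase, differed by -0.77, Dnajb11 (ERdj3) by -0.69 and Sdf2l1, its partner, by -0.64. The lectin chaperone Calr (calreticulin) differed by -0.50, Hsp90b1 (GRP94), the ER member of the Hsp90 family, by -0.46, and Pdia3 (ERp57), the isomerase that works with the lectin chaperones, by -0.15, all past the test. For Pdia3 the call was lost on the values as deposited, at -0.04 log2, and without Antagomir-SCR replicate 1 of 36 h, at -0.12 log2. Hyou1 was read from a probe set open to cross-hybridization. Without such probe sets its difference was -0.14 log2, with an adjusted p of 0.337.

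Canx (calnexin), the membrane-bound partner of calreticulin, went the other way. Its control intensity was 2940.2 and 2988 at 36 h, 2457 and 2486 at 48 h, and 3665, 3721 and 3738 at 72 h. It thus dipped at 48 h with the other ER genes and was at its highest at 72 h, 0.32 log2 above 36 h (SE 0.04, adjusted p = 1.64e-05). The Antagomir-31 difference was 0.33 log2. Its probe set was open to cross-hybridization as well. Without such probe sets the control difference between 72 and 36 h was 0.11 log2 (adjusted p = 0.283 by limma). The step from 36 to 48 h was then -0.25 log2 and did not pass either (adjusted p = 0.0793).

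Most of the ER genes were already lower at 48 h. From 36 to 48 h, 13 of the 14 fell, with a median of -0.35 log2, where 11.4% of all genes fell and 15.5% rose. Hsp90b1 differed most, by -0.59 log2 (SE 0.10), followed by Hyou1 at -0.51, Creld2, Dnajc3 and Dnajb9 each at -0.50 and Sdf2l1 at -0.44. Calr, at -0.20, missed the threshold (adjusted p = 0.0557 by limma). The call of Pdia3 was lost under median centring (-0.15 log2, adjusted p = 0.0553) and with only the arrays compared (-0.17 log2, adjusted p = 0.0895). With single Antagomir-SCR arrays of 36 or 48 h left out, its difference ran from -0.20 to -0.14 log2. All 4 arrays at 48 h lay below all 4 arrays at 36 h for 14 of the 14 genes, against 18.7% of all genes.

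From 48 to 72 h, 11 of the 14 fell and Canx rose by 0.59 log2, with a median over the list of -0.37, where 34.9% of all genes fell and 33.1% rose. Creld2 fell by 1.46 log2, Dnajc3 by 1.07, Hspa5 by 0.75 and Pdia6 by 0.63. Hsp90b1 (0.13 log2) and Pdia3 (0.02 log2) did not pass. On the values as deposited, where all genes moved up by a median of 0.32 log2, 7 of the 14 fell and 3 rose (14.1% and 66.7% of all genes), and Sdf2l1 turned to 0.04 log2. This step and the one before it share the 48 h arrays, and both share arrays with the comparison of 72 with 36 h.

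Other measures moved with time beside the ER genes. A sign of RNA quality, the 3′ over the 5′ actin probe set in log2, ran from 0.32 to 0.43 at 36 h, from 0.37 to 0.41 at 48 h and from 0.21 to 0.27 at 72 h. The same ratio for Gapdh moved the other way, with -0.05 to -0.03 at the first time, -0.02 to -0.01 at the second and -0.01 to 0.09 at the last. Plasma cells secrete heavily and hold much ER. In the controls the summed intensity of the 6 measured B and plasma cell markers ran from 190.1 to 196 at 36 h, from 198 to 226 at 48 h and from 175 to 190.1 at 72 h. As deposited this sum was higher at 72 h, with 177.2 to 181.9, then 176.2 to 198.8, then 200.1 to 217.8. The sum of the 5 macrophage markers was 231 to 235 at 36 h and 177 to 183 at 72 h (213.1 to 216.3 and 202.5 to 208.6 as deposited). That of the 4 dendritic cell markers, carried by Cd74, was 129.9 to 132 and 290.3 to 303 (121.4 to 123.1 and 334.5 to 347.3 as deposited). Ifng, the brightest T cell and Th1 marker, stood at 16480 on the arrays of 36 and 48 h and at 7576 to 8157 at 72 h. These are quantile normalized values, where equal ranks get equal values. Cd3e (436.6 to 467.5 at 36 h, 546.5 to 642 at 72 h), Cd4, Tbx21 and Il2ra were higher at 72 h than at 36 h. The ranges of Cd28, Cxcr3 and Il12rb2 overlapped between these times. Within the B and plasma cell markers, Ighm was highest at 36 h and Sdc1 at 48 h, over both treatments. None of these markers was at 0, an intensity that arrays do not give. Their part in the fall of the ER genes was not tested. In bulk samples, fewer cells of a type and less RNA per cell cannot be told apart.

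Many promoters of the ER genes share a sequence. The genes were listed for their part in the unfolded protein response, which is known to act through it. Its share among them is therefore no independent result. The ER stress response element, CCAAT and CCACG with 9 bases of any kind between them, is the site through which Atf6 and Xbp1 are known to act together with the factor NF-Y. It was searched on both strands in the RefSeq promoter windows of mouse build GRCm38.p6, from 250 bases before to 50 after each start site, which were on hand for 26 of the 34 genes. The sites below are shown for the 8 genes of the list that hold the element, of which 7 fell and Canx rose after quantile normalization. Each reads along its gene, 5′ to 3′, with 5 bases on either side and the element in capitals, and in Calr and Creld2 the element lies in reverse.
Creld2, chr15:88819515-88819543, plus strand, 126 bases before the start: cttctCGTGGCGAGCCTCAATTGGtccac
Dnajc3, chr14:118937822-118937850, plus strand, 105 bases before the start: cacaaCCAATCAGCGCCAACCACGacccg
Hspa5, chr2:34772020-34772048, plus strand, 65 bases before the start: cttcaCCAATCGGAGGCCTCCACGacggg
Pdia6, chr12:17266486-17266514, plus strand, 98 bases before the start: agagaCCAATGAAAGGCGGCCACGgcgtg
Hsp90b1, chr10:86705633-86705661, minus strand, 212 bases before the start: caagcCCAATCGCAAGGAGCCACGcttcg
Calr, chr8:84847070-84847098, minus strand, 162 bases before the start: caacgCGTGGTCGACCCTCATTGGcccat
Canx, chr11:50325795-50325823, minus strand, 145 bases before the start: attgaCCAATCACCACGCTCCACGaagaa
Syvn1, chr19:6046527-6046555, plus strand, 44 bases before the start: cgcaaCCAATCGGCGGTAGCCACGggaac

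The element was in 7 of the 12 ER members with a promoter window (58.3%), in 1 of 4 genes of ER-associated degradation (Syvn1) and in 0 of 6 cytosolic members. Over all 27025 genes with a promoter window the share was 0.137%. Hsp90b1 held it at 2 places. The related element, ATTGG and CCACG with 1 base between them, was in Herpud1 and Dnajb11, against 0.0444% of those genes. TGACGTGG was in none of the 26 and in 0.714% of all genes with a window. The heat shock element (GAA, TTC and GAA, each 2 bases apart) was in Hspd1, Hspe1 and Hsph1, against 0.662% of all genes with a window. For the mitochondrial chaperonin pair, Hspd1 and Hspe1, it is one and the same stretch, since the genes run apart from a shared promoter, with 2 overlapping copies of the element covering the capitals.
Hspe1, chr1:55088054-55088081, plus strand, 89 bases before its start: gtccgTTCTAGAACCTTCCGGAAggccc
Hspd1, the same stretch on the minus strand, 144 bases before its start: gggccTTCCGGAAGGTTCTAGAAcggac
A match is a description of the letters in these windows and not evidence of a bound factor. Among the ER members, those with the ER stress response element had a median of -0.89 log2 between 72 and 36 h (6 fell, Canx rose), and the 5 with a window but no such element a median of -0.69 (5 fell). Of the genes outside the list that held the element, 6 were tested, of which 2 fell and 2 rose, with a median of 0.01. The differences of the second group lie within the range of the first, and no difference between the groups was tested.

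Of the 4 genes of ER-associated degradation, 3 fell between 36 and 72 h in the controls, where 35.7% of all genes fell. Under median centring 2 fell, where 3608 of the 10916 genes did, and as deposited 2 fell, where 17% of all genes did. Sel1l, the scaffold of the ubiquitin ligase that clears misfolded ER proteins, differed by -0.94 log2 (SE 0.05, adjusted p = 6.56e-09), and nearly all of that lay after 48 h, since it differed by 0.02 from 36 to 48 h and by -0.96 from 48 to 72 h. Herpud1, which helps to assemble the ligase, also moved mostly after 48 h, with -0.05, then -0.39 log2. As deposited its second step was -0.13 and did not pass (adjusted p = 0.0728 by limma). Syvn1 (HRD1), the ligase itself, differed by -0.32 (adjusted p = 0.0140), with 0.02 on the values as deposited. Its call was also lost under median centring, without cross-hybridizing probe sets and without Antagomir-SCR replicate 1 of 36 h (adjusted p = 0.0709, 0.0602 and 0.0985). Edem1, a lectin that hands over misfolded glycoproteins, differed by 0.11 log2 from 36 to 72 h and did not pass (adjusted p = 0.0628), while it rose by 0.21 from 48 to 72 h, a call that was lost under median centring. As deposited its difference from 36 to 72 h was 0.24 and passed (adjusted p = 0.000348), as it did with a prior variance that followed intensity (adjusted p = 0.0201) and without Antagomir-SCR replicate 2 of 72 h (adjusted p = 0.0475).

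The 2 transcription factors fell and the sensor kinase rose. Xbp1 had control intensities of 3527 and 3503 at 36 h, 3493 and 3527 at 48 h, and 1939, 2024 and 2037 at 72 h. It was level over the first step, at -0.00 log2, while most ER chaperones were already lower, and differed by -0.81 log2 over the second (SE 0.05, adjusted p = 8.95e-09). The Antagomir-31 arrays gave 3493 and 3521, then 3613 and 3425, then 2232, 2214 and 2067.

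Atf6 fell by 0.69 log2 from 36 to 72 h (SE 0.06), of which 0.48 came after 48 h. As deposited the fall was 0.33, and the step after 48 h was -0.09 and did not pass (adjusted p = 0.216 by limma). The step to 48 h, at -0.21 log2, lost its call in several settings. Among them were median centring (-0.14) and the mean of its probe sets (-0.08). Ern1 had log2 levels of 7.44 and 7.36 at 36 h, 7.05 and 7.19 at 48 h, and 7.96, 7.91 and 7.80 at 72 h in the controls. It fell by 0.28 log2 to 48 h and rose by 0.77 to 72 h, so that it ended 0.49 above 36 h (SE 0.06, adjusted p = 1.41e-05). Its probe sets disagree. Over 5 of them the difference between 72 and 36 h ran from -0.34 to 0.49 log2, and 3 had the sign given here. The fall to 48 h was lost without Antagomir-SCR replicate 1 of either time, at -0.24 and -0.21 log2.

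**Figure D2:**
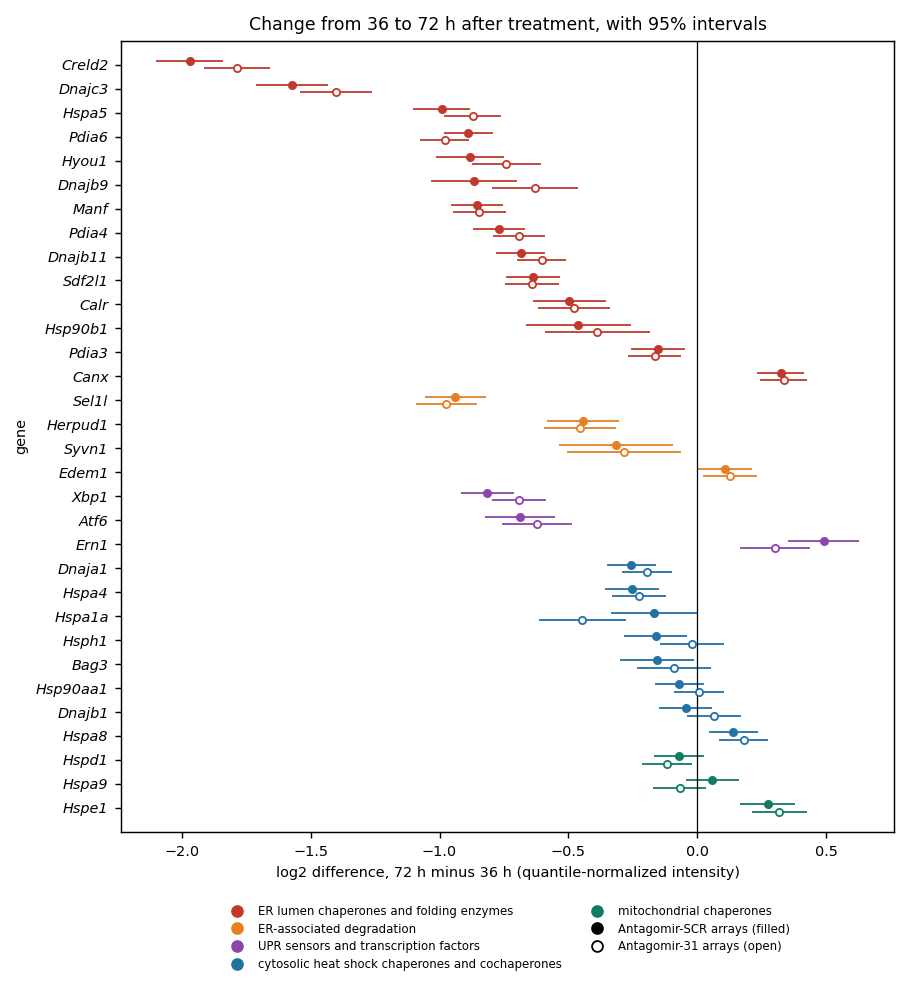
Log2 difference between 72 and 36 h for the 32 measured genes after quantile normalization, with filled marks for Antagomir-SCR, open marks for Antagomir-31, 95% intervals from limma and colours for the lists. The ER chaperones lie left of 0 down to -1.97 for Creld2, with Canx to the right at 0.32, while the cytosolic genes lie between -0.26 and 0.14 in the controls and part of them turn positive on the values as deposited.

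The cytosolic heat shock genes moved over a narrower range. From 36 to 72 h, 3 of the 8 measured fell, near the 35.7% of all genes that fell, 1 rose and 4 did not pass, with a median of -0.16 log2 that became 0.12 on the values as deposited. On those values 2 of the 8 fell and 4 rose, where 17% of all genes fell and 61.5% rose. Dnaja1, an Hsp40 cochaperone, differed by -0.26 log2 (SE 0.04), Hspa4, an exchange factor of the Hsp110 family, by -0.25 (SE 0.05) and its relative Hsph1 by -0.16 (SE 0.06). Hsph1 was at 0.01 on the values as deposited, and its call was lost with the mean of its probe sets (-0.05), with only the arrays compared (adjusted p = 0.0794) and without Antagomir-SCR replicate 1 of 36 h (-0.09) or 4 of 72 h (-0.11). Hspa4 gave 0.29 with the mean of its 4 probe sets, of which 1 had the sign of the brightest.

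Hspa8 (HSC70), the constitutive cytosolic Hsp70, had control intensities of 9631 and 9656 at 36 h, 9435 and 9505 at 48 h, and 10340.0, 10800.0 and 10724 at 72 h. It rose by 0.14 log2 (SE 0.04, adjusted p = 0.0123), a call that was lost under median centring, without cross-hybridizing probe sets and without Antagomir-SCR replicate 1 of 36 h. Hsp90aa1, the inducible cytosolic Hsp90, differed by -0.07 log2 (0.12 as deposited) and Dnajb1 (HSP40) by -0.05 (0.18 as deposited). Bag3, a cochaperone of Hsp70, differed by -0.16 log2 (0.20 as deposited). None of these 3 passed after quantile normalization, while as deposited all 3 passed as rises (adjusted p = 0.0237, 0.00459 and 0.0127 by limma).

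Hspa1a, the stress-inducible Hsp70, was the dimmest of the 32 genes, with log2 levels of 5.13 to 5.68 over the 14 arrays. It differed by -0.17 log2 in the controls (adjusted p = 0.0707) and by -0.45 on the Antagomir-31 arrays (adjusted p = 0.000199). On the values as deposited these became 0.13, in the other direction, and -0.16 (adjusted p = 0.0735), so the call was lost. Its near-identical copy Hspa1b can hybridize to the same probes, so the value is uncertain as to which gene it stands for. From 36 to 48 h none of the 8 cytosolic genes passed, with differences from -0.14 to 0.04 log2.

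Of the mitochondrial chaperones 1 of 3 rose from 36 to 72 h and none fell, where 35.5% of all genes rose and 35.7% fell. As deposited 2 of 3 rose, where 61.5% of all genes rose and 17% fell. With median centring 1 rose and Hspd1 fell, where 4193 of the 10916 genes rose and 3608 fell. Hspe1 (HSP10), the lid of the mitochondrial chaperonin, rose by 0.27 log2 from 36 to 72 h (SE 0.05, adjusted p = 0.000236), with log2 levels of 12.10 and 12.13 at 36 h and of 12.44, 12.33 and 12.40 at 72 h. Hspd1 (HSP60), the chaperonin that shares its promoter, was at -0.07 and did not pass. Hspa9 (mortalin), the mitochondrial Hsp70, rose by 0.20 to 48 h, fell by 0.15 to 72 h and ended at 0.06, which did not pass. These values depend on how the gene is read. As deposited the difference from 36 to 72 h was 0.21 (adjusted p = 0.00107) and with the mean of its probe sets 0.41 (adjusted p = 4.74e-06), and the fall after 48 h turned to 0.08 and 0.22. The rise to 48 h was lost as deposited and without Antagomir-SCR replicate 1 of either time, and the fall to 72 h without that of 48 h.

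Families with a member in the ER and one outside it let the change be read within each array, where a factor common to the array cancels. On the deposited values, the log2 ratio of Hspa5 to Hspa8, relative to its mean on the control arrays at 36 h, ran from -0.06 to 0.01 at 36 h, from -0.31 to -0.19 at 48 h and from -1.16 to -1.05 at 72 h over the arrays of both treatments. The 3 times did not overlap. Against the mitochondrial Hspa9, the ratio of Hspa5 was -1.05 to -0.87 at 72 h.

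Among J-proteins, the ratio of Dnajc3 to Dnajb1 was -1.62 to -1.53 at 72 h and that of Dnajb11 to Dnaja1 -0.49 to -0.29. For the Hsp110 relatives, Hyou1 to Hsph1 stood at -0.91 to -0.55. The Hsp90 pair, Hsp90b1 to Hsp90aa1, had a different course, at -0.73 to -0.33 at 48 h and -0.62 to -0.43 at 72 h, and the ranges of these times overlap. Such a ratio shows unequal change and not which of the genes moved.

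**Figure D3:**
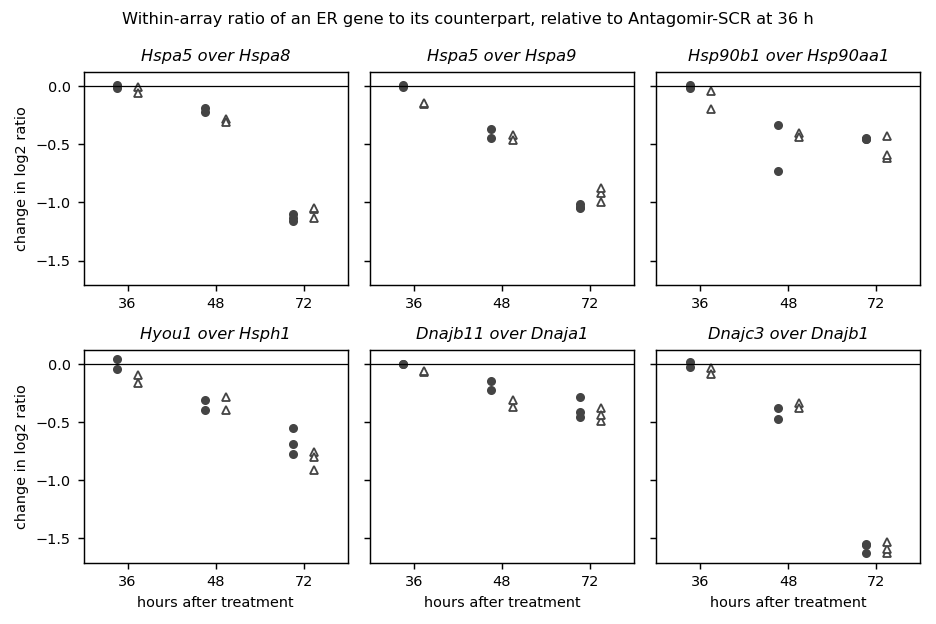
Log2 ratio of an ER chaperone to a cytosolic or mitochondrial relative on each array (deposited values), relative to the mean of the Antagomir-SCR arrays at 36 h, against hours after treatment. The 6 pairs lie at or near 0 at 36 h and below it on every array at 72 h, from -0.29 at the mildest (Dnajb11 to Dnaja1) to -1.62 (Dnajc3 to Dnajb1).

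Genes of the same pathways outside the list of 34 gave a background for these courses. Between 36 and 72 h in the controls, 19 of 25 other ER folding and quality control genes fell and 1 rose (median -0.66 log2), and 18 of 20 genes of ER translocation and glycosylation fell and 1 rose (median -0.33). Of 12 other sensors and factors 6 fell and 3 rose. Over all genes tested 35.7% fell and 35.5% rose. Outside the ER, 5 of 29 other cytosolic heat shock genes and cochaperones fell and 10 rose (median 0.07), 1 of the 8 CCT chaperonin subunits fell and 1 rose, and 1 of 8 other mitochondrial chaperones and proteases fell and 4 rose. On the deposited values the counts of the cytosolic list were 3 and 22, with a median of 0.32, where 17% of all genes fell and 61.5% rose.

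The genes with the smallest p-values were Nucb2, a calcium-binding protein of the secretory pathway, at -1.79 log2, Fkbp11, an ER prolyl isomerase, at -1.74, Creb3l2, a membrane-bound transcription factor of secretory cells, at -1.54 and Trib3, a target of the PERK branch, at -1.50. Ddit3 (CHOP), the main transcription factor at the end of the PERK branch, rose by 0.44 log2 from 36 to 48 h and fell by 1.49 from 48 to 72 h.

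The target of Antagomir-31 is mmu-miR-31-5p, shown because its seed, bases 2 to 8 in capitals, sets which mRNAs it can bind. It lies on chr4:88910614-88910635, minus strand, in GRCm38.p6.
mmu-miR-31-5p: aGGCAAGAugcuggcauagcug
The mature microRNA itself was not analysed here, so its loss in the treated cells could not be checked.

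Between Antagomir-31 and Antagomir-SCR treated cells, none of the 32 genes differed past the threshold at 36, 48 or 72 h by limma. Over all genes tested, 0% were called at 36 h, 0% at 48 h and 1.1% at 72 h (54 higher and 66 lower), with 585, 654 and 1937 genes at an unadjusted p under 0.05. Among the 32 genes those counts were 4, 5 and 3. The 95% intervals of the 32 differences reached from -0.40 to 0.49 log2 at 36 h, from -0.36 to 0.35 at 48 h and from -0.27 to 0.21 at 72 h. Each interval was made for its gene alone and covers only the spread among these arrays. It therefore does not bound differences between separate cultures. With planted differences of 0.2 log2 at 72 h, 34% were recovered in simulated data, and 96% of those of 0.4.

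At 36 h, 13 of the 14 ER members were lower with Antagomir-31, with a median of -0.08 log2, against 49.4% of all genes and a median of 0.00. Dnajb9 at -0.21 and Hyou1 at -0.16 had an unadjusted p under 0.05, as did Ern1 at 0.22 and Hspa1a at 0.31, and the smallest adjusted p of the 32 was 0.520. At 48 h, 12 of the 14 were lower (median -0.06, all genes -0.01), and Creld2 at -0.22, Pdia4 at -0.19, Dnajb11 at -0.14, Sdf2l1 at -0.13 and Pdia6 at -0.11 were under an unadjusted p of 0.05. At 72 h it was 8 of 14 (median -0.01). The 14 genes were read on the same arrays, so none of these counts stands for 14 independent results. The cytosolic members had medians of -0.02, -0.00 and 0.04. Arrays of the treatments did not overlap for 18 of the 32 genes at 36 h (29.3% of all genes), 10 at 48 h (33.2%) and 8 at 72 h (24.2%).

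Pdia6 came nearest to the threshold. Its deposited intensity at 72 h was 1901, 1987 and 2006 on the control arrays and 1734, 1771 and 1793 on the Antagomir-31 arrays, which did not overlap. The difference was -0.15 log2 (adjusted p = 0.0807 by limma), and it passed when the prior variance followed intensity (adjusted p = 0.0118) and when genes were filtered at a mean log2 of 6 (adjusted p = 0.0436). Xbp1 and Hsph1, each at 0.11 log2, were the others with an unadjusted p under 0.05 at 72 h. Hsph1 and Pdia3 are on the study's list of putative miR-31 targets, and Pdia3 differed by -0.01 at 72 h.

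**Figure D4:**
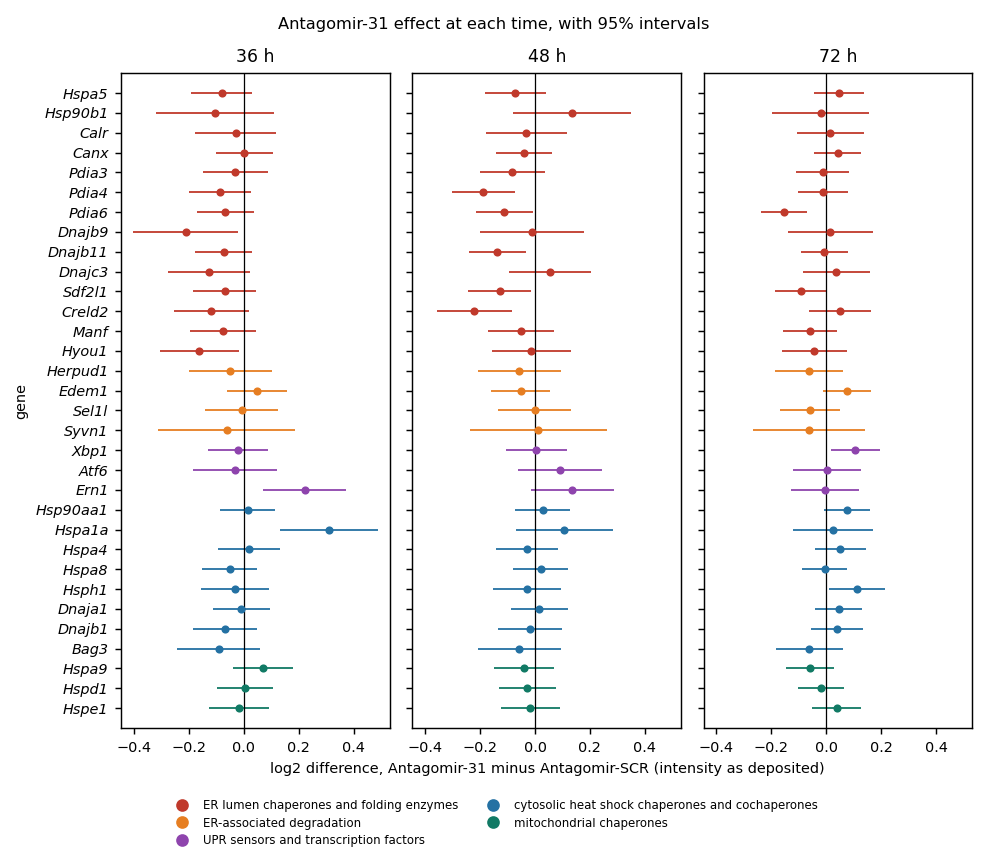
Log2 difference between Antagomir-31 and Antagomir-SCR for each of the 32 measured genes at 36, 48 and 72 h on the deposited values, with 95% intervals from limma. At each time most intervals hold 0 (28, 27 and 29 of 32), and the ER members sit mostly left of 0 at 36 and 48 h, with medians of -0.08 and -0.06.

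Averaged over the times, 0.0183% of all genes and none of the 32 were called, and the smallest adjusted p was that of Pdia6 (-0.11 log2, adjusted p = 0.167). By the interaction test, no difference of the effect between times passed for any of the 32. The nearest were Hspa1a for 72 against 36 h (-0.28 log2, adjusted p = 0.367, where 0.0183% of genes passed) and Creld2 for 72 against 48 h (0.27 log2, adjusted p = 0.324, where 0.0366% passed). Of the 102 other pathway genes tested none was called at any time. Ostc, a subunit of the oligosaccharyltransferase, had -0.18 log2 at 72 h (adjusted p = 0.0563), Trib3 had 0.24 at 36 h and Ddit3 0.29 at 48 h.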

How the data were processed

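The authors scanned the arrays and summarized them with GCOS and RMA (affy; versions not given in the sources used here), and deposited a table of RMA intensity values on a linear scale for 45101 probe sets. Of these, 34945 carried 1 gene symbol. A gene was read from its probe set with the highest mean log2 over the 14 arrays. Treatments were compared on log2 of the deposited values and times on quantile normalized values, in 1 limma fit of 6 groups (limma 3.58.1, R 4.3.3, no block) over the brightest 60% of genes, with Benjamini-Hochberg adjustment and a threshold of 0.05. The number of arrays limits the precision. Genes were drawn from the list of 34, and up to 4 other pathway genes per comparison by smallest p. Members and lists were chosen with earlier results of these data known. The fit was tested on simulated data. Alternatives covered the filter, normalization, probe set rule, prior variance, replicate block and left-out arrays. Promoters and the microRNA came from RefSeq (GRCm38.p6).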

Additional observations from a re-analysis of the deposited data

How the results depend on the processing

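None of the 32 genes was called for the Antagomir-31 effect at 36 or 48 h, or for its difference between times, under any alternative, and only Pdia6 was called for the effect at 72 h or averaged over times. The count of all genes called at 72 h, 120 in the report, was 283 with a mean log2 of at least 6, 60 with the mean of all probe sets, 14 without a filter, 11 with only the arrays compared, 422 with a prior variance that followed intensity (the trend), and 9 to 107 when single arrays were left out (9 without Antagomir-31 72 h replicate 2, 10 without replicate 3 or without Antagomir-SCR replicate 3, 42 and 47 without Antagomir-SCR replicates 2 and 4). The averaged effect called 14, 7, 1 and 36 genes with the higher mean, all probe sets, no filter and the trend (2 in the report, 1 to 5 with arrays left out). The difference of 72 from 36 h called 17, 0, 0, 1 and 46 with the higher mean, all probe sets, no filter, own arrays and the trend (2 in the report, 0 to 7), and that of 72 from 48 h called 14, 1, 2, 0 and 21 (4 in the report, 0 to 7). At 36 h the trend called 1 gene, and leaving out arrays 0 to 1 at 36 and at 48 h.

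With the replicate number as a block, the effect called 22 genes at 72 h and 1 on average, and each difference between times 1. Deviations of same-numbered arrays correlated at 0.05 at 36 h, -0.16 at 48 h and -0.07 to 0.05 at 72 h. Arrays with crossed numbers gave -0.07 to 0.06 at 72 h. At 36 and 48 h the deviations within a group mirror each other, so crossed numbers only turn the sign. The correlations therefore cannot decide whether equal numbers mark paired arrays, and the labels do not say. A block with crossed numbers at 48 h, chosen after seeing the data, called 0 genes there, as did the planned block.

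Of the time courses, 36 to 48 h called 5097 genes without a filter (2939 in the report, 1656 to 2973 with arrays left out), 48 to 72 h 6494 to 7447 and 36 to 72 h 6970 to 7767 with arrays left out. On the deposited scale the split of calls between 36 and 72 h was 6718 higher and 1860.0 lower, against 3877 and 3893. With arrays left out, 11 to 14, 11 and 12 to 13 ER members fell over the 3 steps (36 to 48, 48 to 72, 36 to 72 h), and 0, 1 to 4 and 2 to 4 cytosolic ones. As deposited, 7 ER members fell from 48 to 72 h. Cytosolic members that fell from 36 to 48 h numbered 2 with all probe sets, 2 with the trend and 3 as deposited (where 2040 of the 10916 genes fell). From 48 to 72 h they numbered 1 with all probe sets, 5 with median centring (4051 of all genes) and 0 as deposited (1539 of all genes). Their median from 48 to 72 h turned to 0.11 with all probe sets and 0.24 as deposited, and from 36 to 72 h to 0.12 as deposited. As deposited, the following turned positive from 48 to 72 h: Sdf2l1 0.0384, Hspa1a 0.16, Hspa4 0.0275, Hsph1 0.22, Dnaja1 0.0875, Bag3 0.24, Hspa9 0.0783, Hspd1 0.17 and Syvn1 0.18; and from 36 to 72 h Syvn1 0.0196, Hsp90aa1 0.12, Hsph1 0.0108, Dnajb1 0.18, Bag3 0.20, Hspd1 0.06 and Hspa1a 0.13. From 36 to 48 h Sel1l turned to -0.03 and Hspa1a to -0.03. With the mean of all probe sets, Ern1 turned to 0.00537 (36 to 48 h), Pdia3 to -0.19, Hyou1 to 0.0253, Hspa4 to 0.35 and Hspa9 to 0.22 (48 to 72 h), and Hsp90aa1 to 0.17 and Hspa4 to 0.29 (36 to 72 h). Median centring turned Pdia3 to -0.14 and Hsp90aa1 to -0.11, and leaving out cross-hybridizing probe sets turned Hyou1 to 0.27 (48 to 72 h). The cause of these changes was not tested. Signal over background limits the dim Hspa1a most among the 32 genes.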
